A study of Drosophila melanogaster with 4 samples.

Results

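The regions described here are the Atonal peaks on the X chromosome arm of Drosophila melanogaster. They were chosen by sequence name alone, as every peak listed on X from the distal end of the arm to its centromere end, without the separate heterochromatic sequence XHet. This gave 253 of the 3280 deposited peaks, or 7.71%. The peaks come from chromatin immunoprecipitation followed by sequencing of larval brains at stage L3, the last larval stage. The animals carried ato:GFP, a knock-in of the IMAGO type that joins the green fluorescent protein to Atonal at its own locus, and they were raised untreated at 25 °C. There were 2 libraries precipitated with anti-GFP and 2 input libraries without antibody, for which the labels describe 400 pooled brains and an input of 10% of the sonicated volume. Both groups came from the same knock-in line, and an untagged line was not analysed here. The sex of the larvae is not among the labels used here. All 4 libraries stand behind a single deposited list with 1 whole-number score per peak, so the values below have no replicate error, no fold over input and no read depth. Peaks of 1 list are not replicates of a condition.

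Atonal is a proneural transcription factor of the basic helix-loop-helix class. It pairs with Daughterless, binds E-box motifs, and is known for specifying chordotonal organs, the R8 photoreceptor and neurons of the optic lobe. The X arm differs from the autosomal arms in that males carry a single copy, whose transcription is raised by dosage compensation. Its distal end is a telomere, where fly chromosomes carry retrotransposon arrays and tandem telomere-associated repeats, and its other end runs into pericentric heterochromatin, which is rich in transposons and satellite repeats. The sequence names are those of release 5 of the fly genome, and all positions below are in release 5, counted from 1. The release 5 sequence and annotation were not used here, so no gene, promoter or E-box was assigned to a peak, with the white gene near 2.7 Mb as the only landmark.

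Most X peaks were narrow. Their median width was 127 bp. The narrowest measured 71 bp and the widest 2933 bp, while the quartiles were 92 and 176 bp, and they covered 43.9 kb in all. Scores ran from 13 to 241 around a median of 23, with the middle of the distribution, from the lower to the upper quartile, at 16 to 40. The score is the authors' own and of unstated scale, and it serves only to rank peaks within the list. The lowest score of the list, 13, was carried by 30 X peaks (11.9%, 95% Wilson interval 8.43 to 16.4%), and 119 (47.0%, 41.0 to 53.2%) lay above the median score of the list, 25. The Wilson intervals here and below cover counting error only. They treat peaks as independent, and peaks that lie in groups are not, so for shares by position they are too narrow.

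The arm had 3 unlike parts. The first 20 kb at the distal end held 11 peaks with a median score of 15. The last 2 Mb at the centromere end held 108 peaks (42.7%, Wilson interval 36.7 to 48.8%) with a median score of 25, or 54 peaks per Mb. When peaks within 10 kb were counted once, that share was 21.4%. With every peak counted, the same part of the other long arms held 42.1% of the peaks on 2L, 37.6% on 2R, 46.5% on 3L and 6.87% on 3R, so X lay within their range. The body of the arm between them held 134 peaks with a median score of 23.5, or 6.57 per Mb. Median widths were 104 bp at the distal end, 127.5 bp in the body and 130.5 bp at the centromere end. Of the 23 bins of 1 Mb, 3 had no peak, and the 3 bins with more than 20 peaks held 160 of the 253.

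**Figure D1:**
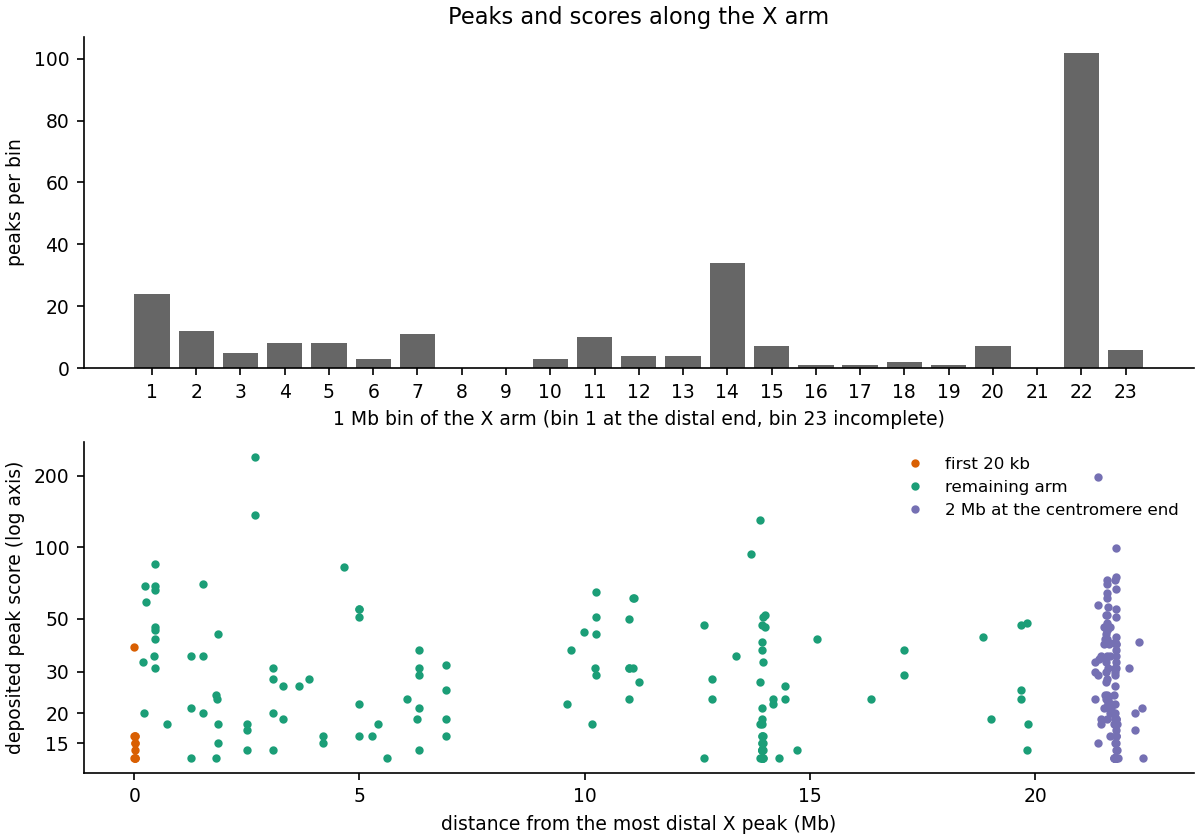
Peaks per 1 Mb bin along the X arm (top, bars) and the deposited score of each of the 253 X peaks against its distance from the most distal one (bottom, log axis, 1 point per peak). Most peaks sit in the bins with 24, 34 and 102 peaks, and the 2 highest points are the scores of 241 and 197.

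The strongest X signal lay at the white gene. White encodes a subunit of the transporter that carries eye pigment precursors, and it is the usual visible marker of fly transgenes. The peak with the highest score on X, 241, ran from 2684321 to 2687253, a width of 2933 bp. It had the third highest score of all 3280 peaks. A second peak, of score 137 and 534 bp, ran from 2690144 to 2690677. Together they covered 3467 bp, 7.90% of all the X sequence under peaks, within 6357 bp, and 2890 bp lay between them. They were the 2 peaks found within 20 kb of the landmark, and they stood alone: the next peak was 172.8 kb away on the distal side and 382.5 kb away on the other. After them, the widest X peak measured 1333 bp. Whether reads from a marker sequence in the knock-in line contribute to this pair was not tested.

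Of the 15 X peaks with the highest scores, 9 lay in the body and 6 at the centromere end, and none lay in the first 20 kb. Over all X peaks the shares of these parts were 53.0%, 42.7% and 4.35%. The split of the 15 was thus close to that of all X peaks. The 15th had a score of 69 and the next peak below it 67. The second highest, of score 197 and 184 bp, lay near the centromere end from 21397797 to 21397980. The fourth, of score 130, was only 73 bp wide (13893847 to 13893919). The fifth, of score 99, lay at 21793865 to 21793987. High scores thus came in both wide and very narrow peaks, and the median width of the 15 was 156 bp.

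Some body peaks were both strong and isolated. The peak of score 94 at 13684556 to 13684722 lay 209.1 kb from any other, and that of score 83 at 4657476 to 4657713 lay 332.7 kb away. The 5 peaks farthest from any other were that of score 83 and the 4 named next. The most isolated, at 16357900 to 16357979, had a score of 23 and its nearest neighbour 731.4 kb away. Peaks at 15168728 to 15168874 (score 41), 13359036 to 13359186 (score 35) and 14716529 to 14716633 (score 14) were 452.1, 325.4 and 263.8 kb from the next. The scores of these 5 ran from 14 to 83, and the highest of them was not on the most isolated peak.

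Peaks less than 10 kb apart were joined into loci to describe how the body is organised. The body had 54 loci, of which 26 were a single peak, 23 held 2 to 4 peaks and 5 held 5 or more. The 26 single peaks had a median score of 23 and none reached 300 bp. The 108 body peaks with company had a median score of 24.5, and 16 of them (14.8%) were 300 bp or wider.

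A locus near the distal end, from 464929 to 469107, held strong peaks close together. Its 6 peaks had scores of 31, 41, 69, 85, 66 and 45 and widths of 71, 150, 580, 88, 616 and 85 bp. All 6 were above the median score of the list. At 250757 to 250912 a peak of score 69 and 156 bp was followed, 2765 bp on, by one of score 59 and 1333 bp that ended at 255010. Wide and narrow peaks thus lay side by side in both places. Their scores were 69 and 59 in the pair and ranged from 31 to 85 in the locus of 6.

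A locus from 4990406 to 4997833 held peaks of score 55, 51, 16, 22 and 55, with the strong ones at both ends. A further locus, from 10234244 to 10250370, held 5 peaks with scores of 31, 51, 43, 29 and 65. Its widths were 88, 387, 348, 843 and 414 bp, so that 4 of its peaks were over 300 bp wide. At 6324173 to 6329405, 5 peaks had lower scores, of 21, 29, 31, 37 and 14.

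Several loci had nearly the same length. Outside the centromere end, 29 X loci held more than 1 peak, and 8 of these (27.6%) spanned 6.5 to 7.5 kb from the first start to the last end. In 6 of them the span was between 6.9 and 7.1 kb. They measured 7.015 kb (from 1522412), 7.012 kb (from 1824977), 7.002 kb (from 6917873), 6.971 kb (from 10990120), 6.929 kb (from 2504547) and 6.927 kb (from 12824766). The scores of the first and last peaks were 35 and 70 in the first of these, 13 and 23 in the second and 32 and 16 in the third. These loci held 2 to 4 peaks each, and the last started 6759 to 6912 bp after the first. On the other long arms, 12 of 43 such loci on 2L (27.9%), 5 of 37 on 2R (13.5%), 2 of 39 on 3L (5.13%) and 1 of 45 on 3R (2.22%) spanned 6.5 to 7.5 kb. Between 6.9 and 7.1 kb there were 3 on 2L, 1 on 2R and none on 3L or 3R. This length was looked at after the positions had been seen, no test was made, and the sequence under these loci was not analysed here.

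The largest locus of the body was a stretch of weak peaks near 14 Mb. From 13940009 to 13955413, 27 peaks lay within 15.4 kb, in a run of 21 with gaps under 1 kb and a further run of 6 that began 1241 bp later. In the run of 21 the median was 15, and only the scores of 47, 40 and 37 were above 25. The run of 6 had the same median score and reached 51. Starts in the run of 21 followed each other at a median of 476 bp, with a range from 182 to 1250 bp, so the spacing was not regular. The peaks covered 27.3% of that run and 43.3% of the run of 6. The nearest peaks outside were 45147 bp and 43862 bp away.

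A group of 4 peaks stood on the distal side of that stretch, from 13893847 to 13894861. The first was the narrow peak of score 130, and those after it had scores of 18, 13 and 27. The gaps between them were 95, 102 and 100 bp. Whether such close peaks are separate sites or a broad region reported in pieces was not tested.

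**Figure D2:**
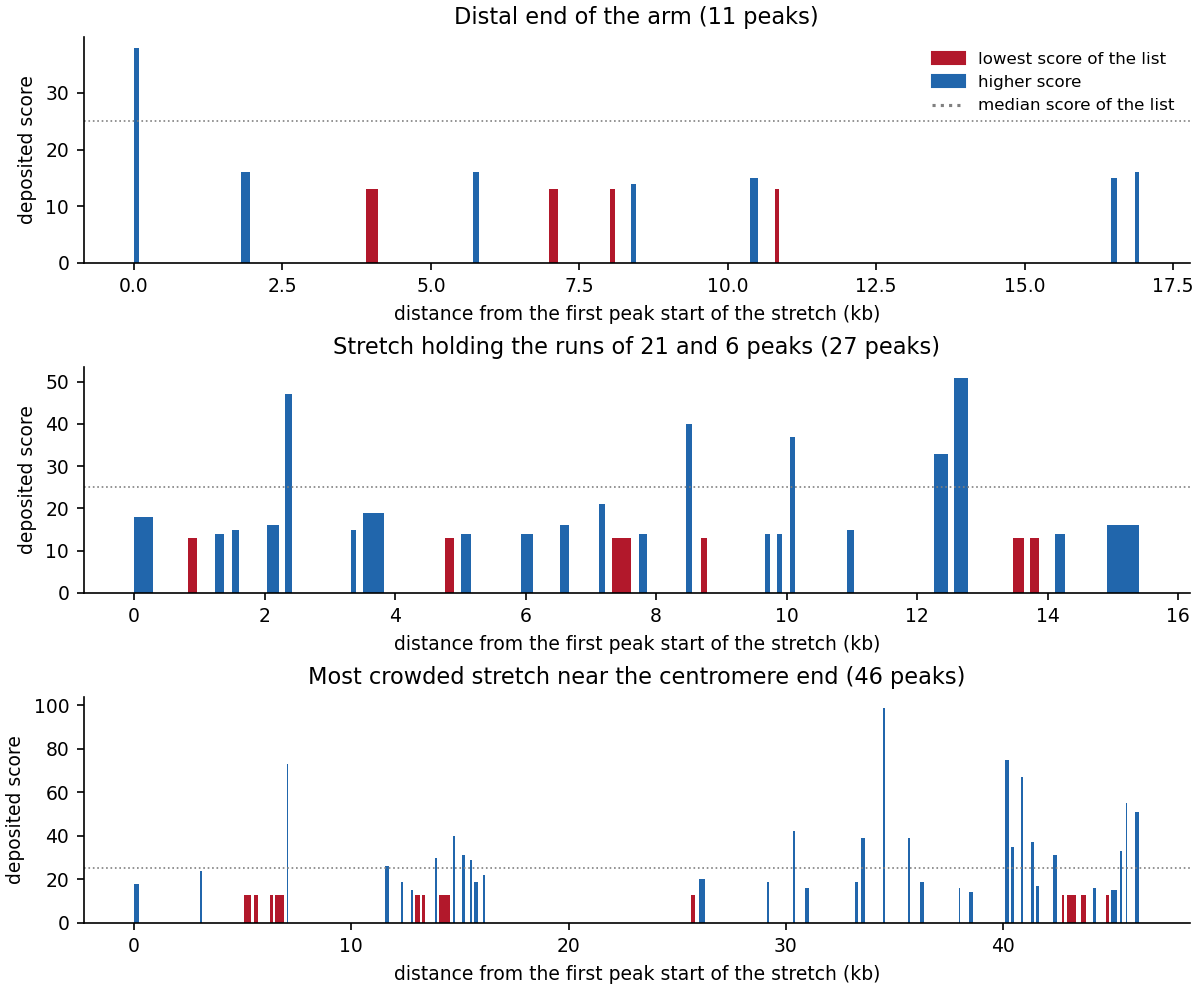
Deposited score (height) and extent (width of each bar, kb from the first peak of the stretch) of the peaks in the 11-peak distal end, the 27-peak locus of the body and the 46-peak locus near the centromere end. Red bars have the lowest score of the list, 13, and the dotted line marks its median score, 25. Most bars of each stretch are below that line.

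The distal end of X held a chain of weak peaks. Its first peak, at 1598 to 1684, had a score of 38, and the other 10 had scores from 13 to 16. Within this chain the first 4 starts were 1803, 2103 and 1802 bp apart, and the later distances were 1278, 1039, 344, 1999, 425, 5656 and 412 bp. The chain ended at 18532, and the next X peak followed 177925 bp later. All 11 were under 200 bp wide. The first 20 kb of 2L and of 3L had no peak, and the last 20 kb before the final peak of 2R and 3R had 3 and 1, counts that include that final peak by construction. Repeats at this end were not examined.

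Near the centromere the X peaks were packed into a short block. Between 21330972 and 21834988, a stretch of 504.0 kb that makes up 2.25% of the arm, lay 102 peaks, 40.3% of those on X. A stretch of 1.48 Mb without a peak preceded it. After it, 6 peaks were spread over the last 570.2 kb, with scores from 13 to 40. Of the 102 peaks, 70 (68.6%) had another peak within 1 kb, and 52 (51.0%) had scores above 25. The limits of this block were set after the positions had been seen.

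The block was not uniform. Gaps over 50 kb split it into groups of 3, 8, 42 and 49 peaks. The 42 peaks from 21525766 to 21684880 had a median score of 35, and none had the lowest score. In the 49 peaks from 21759404 to 21834988 the median was 19, and 13 (26.5%) had the lowest score. The first of these groups was the looser one, with 20 of 42 peaks (47.6%) within 1 kb of another against 43 of 49 (87.8%). Among the 8 peaks from 21397797 to 21469387 was the one of score 197, and the others there scored 15 to 57.

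Runs of 5 or more peaks less than 1 kb apart were found in 6 places on X, 4 of them in this block. They held 67 peaks, 26.5% of those on X, and 17 of the 30 peaks with the lowest score (56.7%, Wilson interval 39.2 to 72.6%). The run from 21602507 to 21607514 was the strongest, with 8 peaks of median score 46.5, a range from 24 to 73 and no gap under 150 bp. The run of 15 peaks from 21799502 to 21805682 had a median score of 31 and a range from 13 to 75. In the run of 12 from 21770960 to 21775568 the median was 20.5 and the range 13 to 40, and the peaks covered 41.4% of it. In the run of 5 from 21764482 to 21766504, 4 peaks had the lowest score and the fifth, 82 bp wide, had 73. Strong and weakest peaks thus lay beside each other within single runs.

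The other long arms did not all end in the same way. Counted back from the last X peak in steps of 0.5 Mb, the X arm held 6, 97, 5 and 0 peaks. From the corresponding end, 2L held 72, 41, 25 and 26, 3L 84, 56, 79 and 11, 2R 55, 61, 30 and 3, and 3R 6, 8, 7 and 2. Among these steps the fullest on X was thus the second one, as on 2R, while on 2L and 3L it was the outermost. On 3R these steps differed little, and the steps beyond them held more, with 12, 17, 15 and 14 peaks. Farther in on 2R, the step from 2 to 2.5 Mb held 59. The median score in the fullest X step was 24. How far each arm sequence reaches towards its centromere was not examined.

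Large parts of X had no peak at all. The 5 longest stretches without one each exceeded 1 Mb and together made up 8.56 Mb, 38.2% of the arm. They ran from 6924875 to 9620624 (2.70 Mb), 17094254 to 18851280 (1.76 Mb), 19852620 to 21330971 (1.48 Mb), 11212696 to 12653542 (1.44 Mb) and 15168875 to 16357899 (1.19 Mb). The longest such stretch was 0.919 Mb on 2L, 0.586 Mb on 2R, 0.756 Mb on 3L and 0.803 Mb on 3R, so no gap of the autosomal arms reached 1 Mb. Of the 225 windows of 100 kb on X, 166 (73.8%) had no peak, against 39.1 to 44.2% on the autosomal arms. With only the peaks of scores above 25, the longest stretch was 2.77 Mb on X and 1.08 to 1.90 Mb on the autosomal arms.

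Peaks on X were thus gathered into few places. With every peak counted, X had 11.3 peaks per Mb, near the 12.1 of 3R. The other arms had 17.0 (2L), 19.2 (2R) and 20.2 (3L). With peaks under 10 kb apart joined, X had 70 loci, or 3.12 per Mb, and the autosomal arms 8.35 (2L), 9.73 (2R), 9.75 (3L) and 8.56 (3R) per Mb. Away from the 2 Mb at the centromere end, X had 2.70 loci per Mb and the autosomal arms 7.20 to 8.60. Among scores above 25 the values were closer, at 2.32 on X and 3.49 to 5.28 on the autosomal arms. An X locus held 3.61 peaks on average, against 1.41 to 2.07. Single peaks made up 44.3% of X loci and 66.2 to 80.3% of those on the autosomal arms. With 1 X and 4 autosomal arms, an exact permutation test over arms cannot give a p below 0.2, so the order of the arms is a description and no difference was tested. The number of X copies in the dissected animals moves with the arm, and its part in these counts cannot be told apart from that of the arm.

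**Figure D3:**
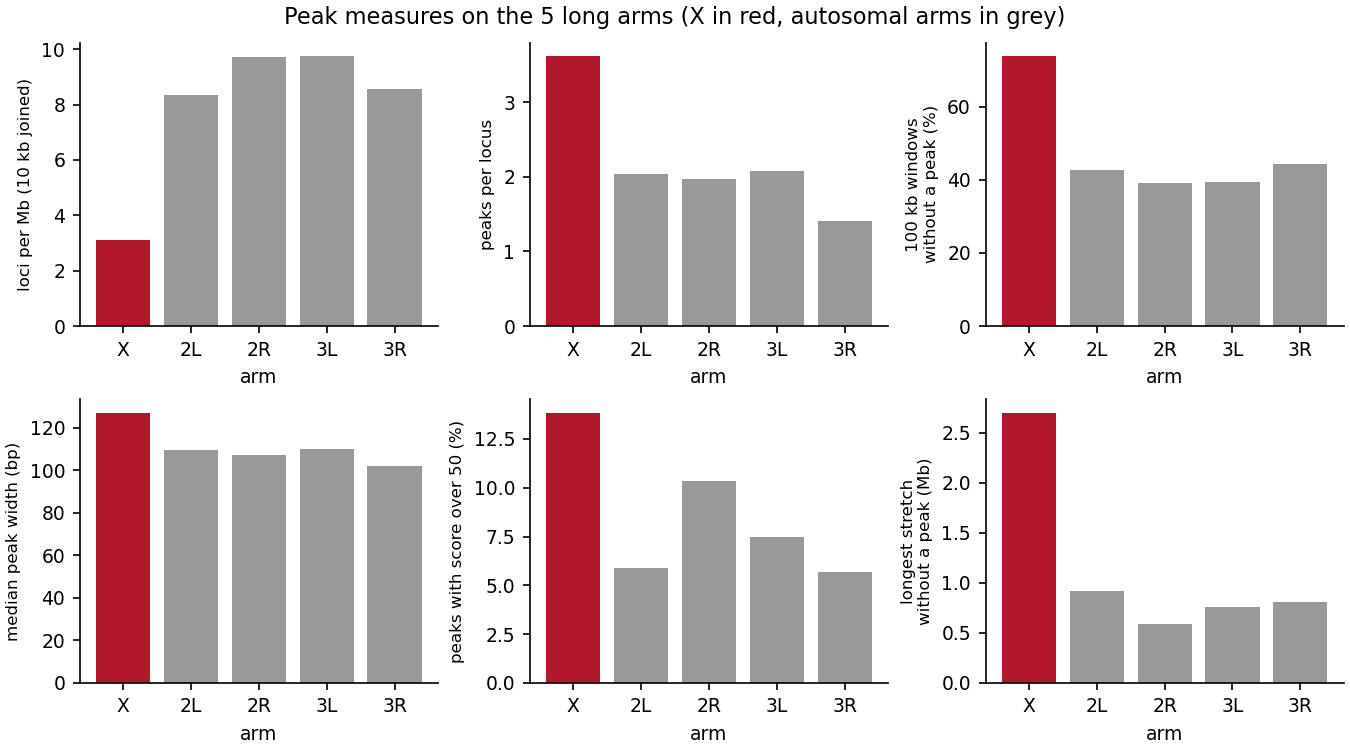
Bars give 6 measures of the peak list for each of the 5 long arms, 1 value per arm, with no replicate error. X (red) lies below the autosomal arms (grey) in loci per Mb, 3.12 against 8.35 to 9.75, and above them in the other 5 measures.

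The distance to the nearest peak showed the same crowding. Its median was 576 bp on X and 2393 to 12868 bp on the autosomal arms. On X, 146 peaks (57.7%, Wilson interval 51.5 to 63.6%) had another within 1 kb, against 28.2% on 2L, 35.6% on 2R, 33.3% on 3L and 20.6% on 3R. These X peaks formed 39 runs of 2 or more, so the interval, which takes them as independent, is too narrow. Away from the centromere end, X kept 51.0% and the autosomal arms 16.4 to 27.1%. Among all 252 gaps between neighbours on X, 38 (15.1%) were under 150 bp, 69 (27.4%) were 150 bp to under 1 kb, 40 were 100 kb to under 1 Mb and 5 were longer. The smallest gap was 80 bp.

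**Figure D4:**
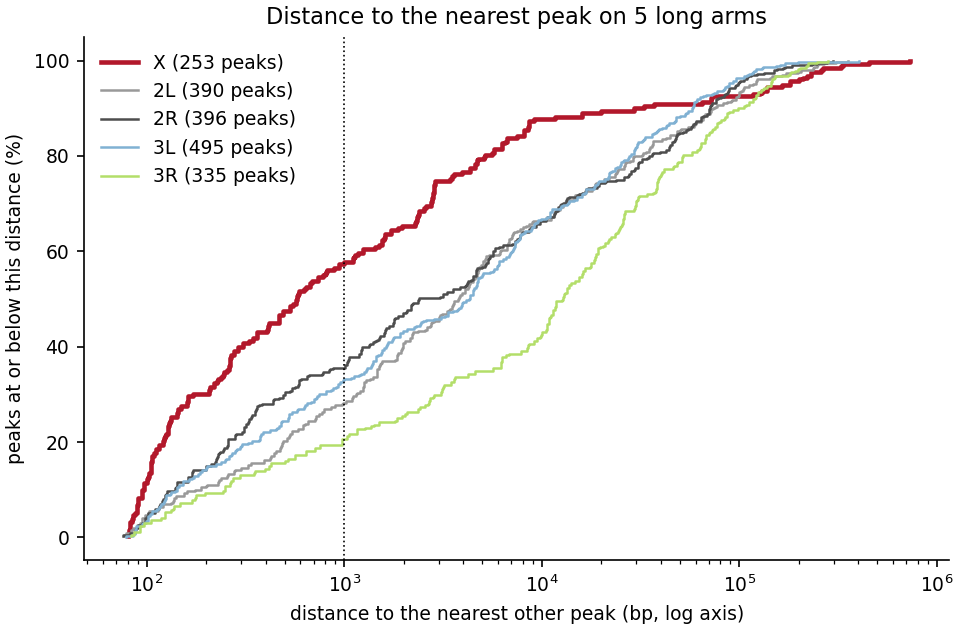
Share of peaks (%) whose nearest other peak on the same arm lies at or within a given distance (bp, log axis), 1 line per long arm. At the dotted line, 1 kb, X stands at 57.7% and the autosomal arms at 20.6 to 35.6%.

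The median peak of X was also the widest among the long arms. The median width of 127 bp on X compared with 109.5 bp on 2L, 107 bp on 2R, 110 bp on 3L and 102 bp on 3R. Away from the centromere end the medians were 126 bp on X and 98.5 to 106 bp elsewhere. Peaks of at least 300 bp numbered 23 on X (9.09%), against 2.53 to 3.58% on the autosomal arms. Among peaks with no neighbour within 1 kb the median was 117 bp on X (107 peaks) and 97 to 108 bp elsewhere.

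The median score of X, 23, was that of 2L, 3L and 3R, with 24.5 on 2R. The upper part of the scores differed more. The upper quartile was 40 on X and 31 to 33 on the autosomal arms, and scores over 50 were found in 35 X peaks (13.8%) and in 5.67 to 10.4% elsewhere. At the other end, X also had the largest share of the lowest score, 11.9%, but only by a little. The share was 10.5% on 2L, 10.4% on 2R, 7.68% on 3L and 5.37% on 3R. The highest single scores went the other way, with 241 on X, 483 on 3L and 530 on 3R, while 2L reached 132 and 2R 164. Of the 100 highest ranks of the list, X held 8 with its 253 peaks, 2L 7 with 390, 2R 10 with 396, 3L 12 with 495 and 3R 9 with 335. That is 3.16% of the X peaks and a smaller share on each of the autosomal arms, and 8 of 100 is close to the 7.71% of the list that lies on X.

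Score and width had no common trend over the whole arm. Spearman's rho over the 253 X peaks was -0.01, and -0.04 without the pair at white. It was 0.12 over the 134 body peaks and -0.23 over the 108 at the centromere end. In the 67 peaks of runs of 5 or more it was -0.38, and in the other 186 it was 0.15. These are descriptions over peaks that share their libraries. The 30 peaks of the lowest score had a median width of 144 bp, above the 122 bp of the other 223, and 23 of the 30 had a neighbour within 1 kb. The 23 peaks of 300 bp or more had a median score of 35, but 5 of them carried the lowest score.

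The widest X peaks were of both kinds. After the peak of 2933 bp at white and that of 1333 bp, the next were 843 bp (score 29, from 10248986), 616 bp (score 66, from 468264) and 580 bp (score 69, from 465483). The second peak at white, of 534 bp, came next, followed by 531 bp (score 55, from 4990406). The last of the 10 were 523 bp (score 13, from 21773440), 496 bp (score 16, from 13954918) and 494 bp (score 22, from 21668353). The weak ones among them lay in the 27-peak locus or near the centromere end. A neighbour within 1 kb was present for 6 of the 10, close to the 57.7% over all X peaks. The last peak of the arm, at 22405118 to 22405227, had the lowest score and a width of 110 bp.

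**Figure D5:**
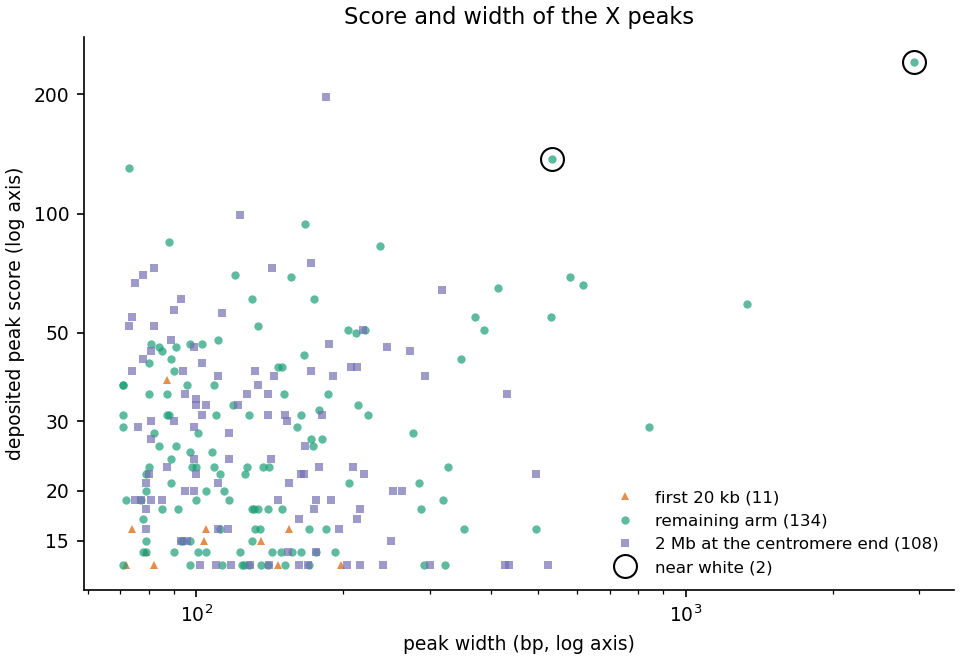
Deposited score against width (bp) of the 253 X peaks, both on log axes, 1 point per peak, by part of the arm. The circled pair at white stands at 2933 bp with score 241 and at 534 bp with score 137, while the points along the lower edge, at score 13, reach 523 bp.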

How the data were processed

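The authors deposited 1 header-less peak list, with a position, an identifier and a whole-number score for every peak. Bowtie2 2.2.1 served as the aligner according to the submitters' processing notes. Not given in the sources used here are the peak caller, the build, the scale of the deposited score, the use of input, the treatment of multiply aligned reads and any pooling. Peaks in repeated sequence depend on these steps. Names ending in Het belong to release 5. The gene table available was of release 6, and no coordinates were converted.

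Starts were converted to count from 1. Arm lengths ran to the last peak, and the centromere was placed at the high end of X, 2L and 3L and the low end of 2R and 3R. A peak belongs to a part of an arm by its midpoint. Runs join peaks less than 1 kb apart and loci those less than 10 kb apart. Shares have 95% Wilson intervals. Python 3.11.15, pandas 2.3.3 and SciPy 1.17.1 were used, and the 4 measures of runs, loci, gaps and close peaks were recovered in 100 of 100 simulated lists. No simulated gap lay between 1 kb and 10 kb, so this recovery could not test the rules there. On X, 76 of the 252 gaps lay in that range. The regions and the rules for naming them were chosen with earlier results of these data known. Named were the 15 X peaks with the highest score, the 10 widest, those within 20 kb of white, the 5 most isolated, the first and last, the 5 longest gaps and runs of 5 or more peaks. The loci, the distal chain, the block near the centromere and its groups were added after the values had been seen.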

Additional observations from a re-analysis of the deposited data

How the results depend on the processing

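No paired analysis was possible because no column of the list belongs to a single library, and for the same reason no replicate could be left out. The counting intervals treat peaks as independent and serve here as a yardstick only. Of 51 recomputed values, 35 stayed within the counting interval of the reported value, or within 1.5 times it for the number of peaks and the longest gap, and 16 did not. The cause was not tested unless the alternative removes peaks by construction. With scores above 25 alone, 119 peaks remained, with a median score of 40, 40.3% within 1 kb of another and a rho of 0.16 between score and width. With peaks within 10 kb counted once by their highest score, 70 remained, with a median score of 35, 21.4% in the last 2 Mb and a rho of 0.27. By construction none then lies within 1 kb of another. Without the last 2 Mb, 145 peaks remained, 51.0% of them close, with a rho of 0.13. Without the runs of 5 or more, a setting added after seeing the data, 36.6% lay in the last 2 Mb, 42.5% were close and rho was 0.15. Taking 500 bp or 2 kb in place of 1 kb gave 47.4% and 65.2% close. The median width ran from 113.5 to 128 bp and the longest gap from 2.70 to 2.77 Mb over the alternatives. Those alternatives only remove peaks, so the longest gap could not become shorter. Without the pair at white the values stayed within these limits. Taking out so small a part of the X peaks could hardly move them, so this does not show how much the pair matters. Lacking single libraries, depth and an untagged line, the list limits every value to this 1 set of peaks.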
